A study of Mus musculus with 32 samples.

Results

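The response to lipopolysaccharide (LPS) was measured in BV-2 cells carrying a mimic of miR-29a, by comparing the 4 LPS_miR-29a libraries with the 4 VEH_miR-29a libraries across all genes. These 8 libraries were chosen by their labels from the 32 of the series, in which vehicle or LPS was combined with a scramble control mimic or a mimic of miR-146a, miR-29a or miR-7a. BV-2 is an immortalised mouse microglial line, so every library comes from 1 line and none from an animal. The labels give the cell type as glioblastoma, and the microglial markers of these libraries are given below. The LPS_miR-29a cells received 10 ng/ml LPS for 24 h and the VEH_miR-29a cells the vehicle; both groups carried the same mimic, and both are labelled wild type. The labels place the mimic transfection after the LPS exposure, whereas the study's methods put LPS after transfection for its phagocytosis assay, so the order for the sequenced cells is not settled here. The study calls its replicates independent experiments without saying what was repeated, and the p-values below measure the spread between these libraries.

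LPS, a component of the outer membrane of Gram-negative bacteria, is bound by CD14 and by the TLR4 and MD-2 receptor complex on myeloid cells. One branch of signalling runs through the adaptor MyD88 to NF-kappa-B and induces cytokines, chemokines and acute-phase proteins. Another runs through TRIF to IRF3 and interferon beta, which then acts back on the cell through its receptor and induces antiviral genes. The miR-29 family is known for repressing DNA methyltransferases, TET enzymes and extracellular matrix genes, and is read by its seed, bases 2 to 8 of the mature strand. The mature mouse sequence that the mimic is named for is shown because both groups compared were labelled as carrying it, although mature miR-29a itself was not measured in the values used here (RefSeq, GRCm38.p6, chr6:31062673-31062694, minus strand, 22 bases, seed in capitals).
mmu-miR-29a-3p: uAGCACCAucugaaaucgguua

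The deposited gene table had lost its decimal marks, which were put back before any comparison, and genes whose mark stayed uncertain were left out. The restored libraries held between 3569429 and 9747918 counts in the VEH_miR-29a group and between 5925888 and 16220016 in the LPS_miR-29a group. The mean was 10906016 counts under LPS against 5790719 under vehicle (exact two-sided permutation test, p = 0.171, n = 4 and 4, smallest possible p 0.0286). Structural RNA genes (ribosomal, small nuclear, small nucleolar and similar classes) took 3.19 to 4.65% of counts in the LPS_miR-29a libraries and 4.41 to 18.8% in the VEH_miR-29a libraries, where replicate 2 stood highest (difference −5.55 percentage points, exact two-sided permutation p = 0.0571). Defining microglial and macrophage markers summed to 3573 to 4447 CPM (counts scaled so that every library has the same total, here before any further scaling) under LPS and 4464 to 5449 CPM under vehicle, and all 10 were above 5 CPM in at least 1 library. Neuronal markers summed to at most 1.15 CPM with Stmn2 at 0, and the astrocyte markers Aldh1l1 and Gjb6, the oligodendrocyte marker Sox10 and the endothelial markers Cldn5 and Emcn were at 0 in all 8 libraries. Endothelial marker sums were 516 to 566 CPM under LPS and 552 to 806 CPM under vehicle, from Kdr, Flt1 and Vwf, and the astrocyte sum of 51.4 to 63.1 against 120 to 129 CPM was nearly all Aldoc. In bulk RNA, fewer cells of a kind and less RNA per cell cannot be told apart.

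LPS changed the expression of a wide set of genes in miR-29a cells. Of 12268 genes tested with limma voom, 3278 passed an adjusted p of 0.05, which is 26.7% of the genes tested. Of these, 1649 were upregulated (13.4% of the genes tested) and 1629 downregulated (13.3%), with a median log2 fold change over all genes of 0.0032. At least 2-fold changes were seen in 599 upregulated and 562 downregulated genes, and at least 4-fold changes in 141 and 88. The CPM values of the groups did not overlap for 3476 genes, 28.3% of those tested. The fit compared the groups without using the pairing by replicate number. With that number as a block, 4602 genes passed, 2293 higher and 2309 lower, among them 3213 of the 3278. Below, library values are CPM after scaling by the trimmed mean of M-values (TMM), always in the order of replicates 1 to 4, and fold changes are log2 of LPS_miR-29a over VEH_miR-29a with the standard error (SE) and the Benjamini-Hochberg adjusted p of limma voom.

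Lcn2, Saa3 and Marco led the upregulated protein-coding genes. Lcn2 (chr2:32384633-32388252, minus strand, GRCm38), the iron-siderophore-binding lipocalin 2, was at 423, 273, 279.8 and 178 CPM in the LPS_miR-29a libraries and had no count in any VEH_miR-29a library. Against the 3 counts that a count of 0 over the whole vehicle group allows, and taking the lower of the folds from pooled counts and from mean CPM, it was at least 2079-fold higher (adjusted p = 1.06e-06). Saa3 (chr7:46711998-46715700, minus strand), an acute-phase serum amyloid A protein made by macrophages, was at 2573, 1248, 1511 and 1178 CPM against 2.597, 2.68, 4.11 and 2.28 CPM (log2 fold change 9.07 ± 0.41 SE, adjusted p = 2.82e-07). The groups stood far apart, with no vehicle library above 4.11 CPM and no LPS library below 1178 CPM. Marco, a class A scavenger receptor for bacteria, was at 19.5, 8.82, 14.8 and 15.9 CPM and at 0 in all vehicle libraries, hence at least 101-fold higher by the same bound (adjusted p = 8.8e-06). Iigp1, an interferon-inducible GTPase, was at 4.59, 5.71, 8.76 and 1.79 CPM against 0 in the vehicle group (at least 38.8-fold, adjusted p = 0.000171).

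Cfb, complement factor B of the alternative pathway, was at 123, 122, 90.3 and 77.04 CPM under LPS and 1.04, 0.67, 0.438 and 1.24 CPM under vehicle (log2 fold change 6.77 ± 0.46 SE, adjusted p = 3.43e-06). Ccl5, a chemokine for T cells and monocytes, was at 89.1, 94.6, 206 and 517 CPM against 0.779, 0.335, 2.23 and 4.25 CPM (log2 fold change 6.58 ± 1.09 SE, adjusted p = 0.00116). Its LPS libraries spread over more than 5-fold, with replicates 3 and 4 highest in both groups, yet the lowest LPS library stayed well above the highest vehicle library. Gbp2, Ifit1 and Slfn4, all interferon-inducible, rose by 6.398 ± 0.54 (adjusted p = 1.47e-05), 5.91 ± 0.67 (adjusted p = 8.84e-05) and 5.47 ± 0.596 (adjusted p = 7.28e-05) on the log2 scale. Avil, an actin-binding villin relative, was higher by 5.81 ± 0.65 (adjusted p = 8.39e-05), but its exons overlap Tsfm on the opposite strand, and whether the counting used strand is not given in the sources used here. The estimated counts of Slfn4 were not whole in any of the 8 libraries, as happens where reads are split between similar genes.

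F13a1 and Agt were among the most downregulated genes. F13a1 (chr13:36867178-37050244, minus strand), the A subunit of coagulation factor XIII and a marker of alternatively activated macrophages, was at 14.6, 5.12, 9.73 and 4.096 CPM under LPS and 654, 442, 443 and 603 CPM under vehicle (log2 fold change -6.18 ± 0.297 SE, adjusted p = 3.07e-07). Agt, the angiotensin precursor angiotensinogen, was at 3.11, 1.297, 0.82 and 0.64 CPM against 84.4, 97.1, 109 and 53.9 CPM (log2 fold change -6.12 ± 0.44 SE, adjusted p = 5.65e-06). In both genes the lowest vehicle library lay more than 10-fold above the highest LPS library. Ocstamp, a membrane protein needed for the fusion of osteoclasts and macrophages, was at 9.34, 6.48, 5.62 and 3.46 CPM against 64.1, 130.3, 88.7 and 132 CPM (log2 fold change -4.09 ± 0.31 SE, adjusted p = 6.16e-06). Ccl24, an eosinophil chemokine of alternatively activated macrophages, was at 1.31, 1.17, 1.17 and 2.43 CPM against 20.8, 10.05, 15.9 and 8.91 CPM (log2 fold change -3.17 ± 0.38 SE, adjusted p = 0.000131). Other members of the 10 most downregulated genes were Sema4g (-3.77), Rxfp1 (-3.64), Cbfa2t3 (-3.396), Slc36a2 (-2.91) and Pianp (-2.86). The rule that named these genes required 1 direction in all 4 same-numbered pairs.

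**Figure D1:**
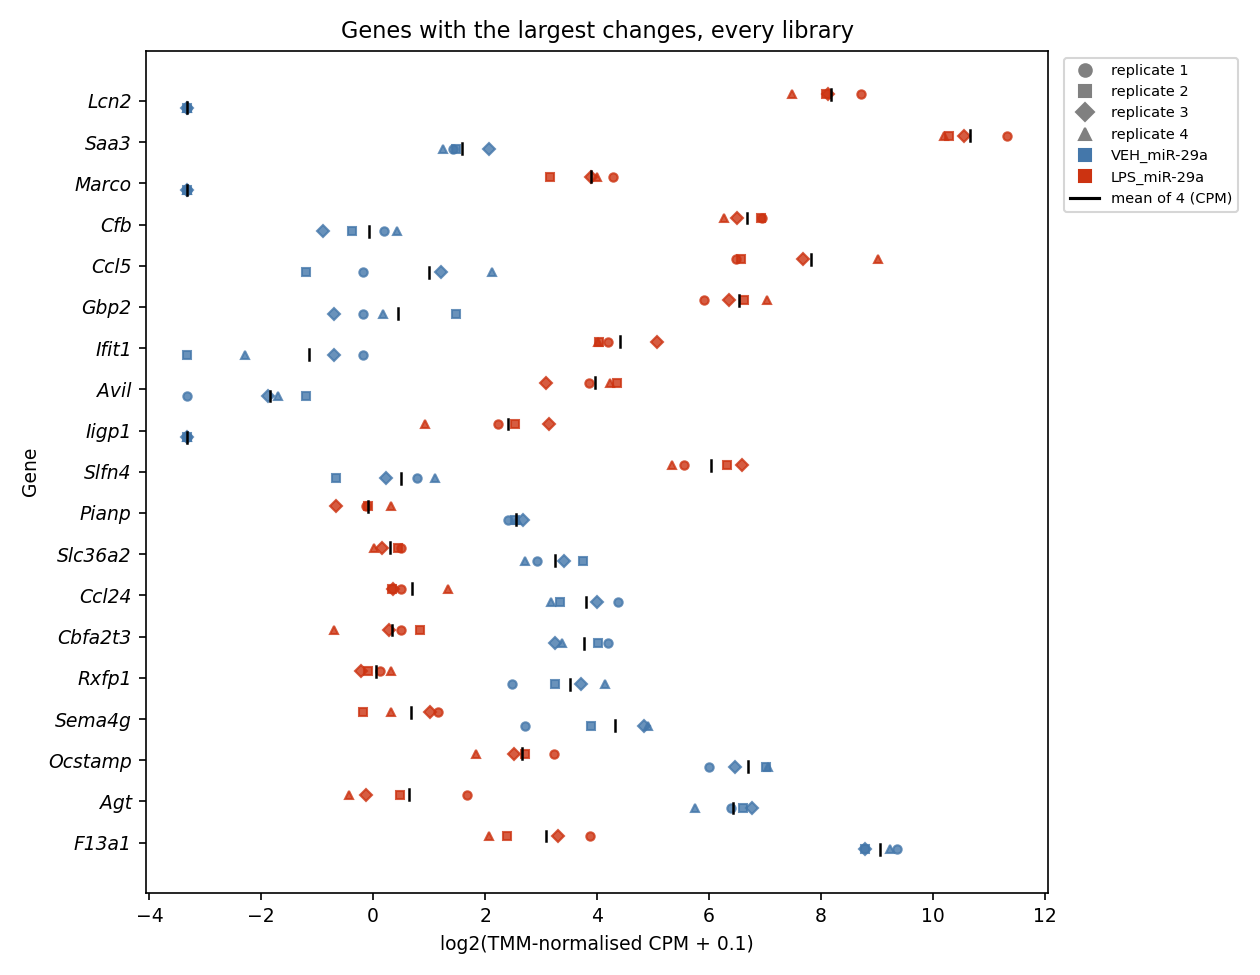
Expression of the 10 most upregulated and 9 of the 10 most downregulated called protein-coding genes in each of the 8 libraries, as log2 of TMM-normalised CPM plus 0.1 on the horizontal axis, with a symbol for each replicate, blue for VEH_miR-29a, red for LPS_miR-29a and a black bar for the group mean of CPM. Lcn2, Marco and Iigp1 sit at the floor in all 4 vehicle libraries, and no gene shown has overlapping groups.

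The LPS receptor and its adaptors were called about as often as all genes. Of 16 members tested, 3 rose and 1 fell, 18.8% and 6.25% of them against 13.4% and 13.3% of all genes, with a median log2 fold change of 0.19. Without VEH_miR-29a replicate 1, 3 rose and 3 fell. Cd14, the co-receptor that hands LPS to TLR4, was at 63.7, 60.2, 57.8 and 68.9 CPM against 22.6, 26.5, 36.8 and 38.04 CPM (log2 fold change 0.98 ± 0.18 SE, adjusted p = 0.00178). Irak3, an inhibitory kinase relative of the pathway, rose by 1.39 ± 0.298 (adjusted p = 0.00523), with exons that overlap Tmbim4 on the opposite strand. Irak1, the kinase it restrains, fell from 162, 183, 172 and 147 CPM to 118, 126, 97.7 and 101 CPM (log2 fold change -0.58 ± 0.13 SE, adjusted p = 0.00744). Tlr4 itself was at 82.9, 90.2, 100.1 and 63.5 CPM against 62.6, 50.9, 60.95 and 56.5 CPM (log2 fold change 0.53 ± 0.16 SE, adjusted p = 0.0303). The Tlr4 call was lost when any of LPS_miR-29a replicates 1, 2 and 3 or VEH_miR-29a replicates 2, 3 and 4 was left out (adjusted p from 0.0518 to 0.0833). It was also lost with GC content and length trends removed (0.16, adjusted p = 0.368). The adaptors Myd88, Ticam1 and Tirap did not pass the test, although with the replicate number as a block Ticam1 was lower (adjusted p = 0.0114).

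Among NF-kappa-B subunits and their feedback inhibitors, 5 of 16 tested members rose and 2 fell, 31.2% and 12.5% against 13.4% and 13.3% of all genes (median 0.34). With GC content and length trends removed, 8 rose and 1 fell, and 9 and 3 with the replicate number as a block as well. The 5 members first counted as higher were inhibitors and co-regulators. Bcl3, an atypical nuclear I-kappa-B protein, was at 13.8, 15.5, 20.8 and 24.2 CPM against 2.08, 2.01, 3.94 and 2.798 CPM (log2 fold change 2.69 ± 0.33 SE, adjusted p = 0.000145), and the related Nfkbiz rose by 1.15 ± 0.21 (adjusted p = 0.00187). Socs3, which blocks cytokine receptor signalling, was at 65.5, 97.5, 67.3 and 57.1 CPM against 24.7, 32.2, 23.8 and 16.4 CPM (log2 fold change 1.66 ± 0.23 SE, adjusted p = 0.00035), and Nfkbia and Tnfaip3, which retain NF-kappa-B in the cytoplasm and edit ubiquitin on its activators, rose by 0.91 ± 0.25 (adjusted p = 0.0184) and 0.89 ± 0.16 (adjusted p = 0.00213). The Nfkbia groups overlapped, and its call was lost without LPS_miR-29a replicate 3 or VEH_miR-29a replicate 3 or 4 (adjusted p = 0.0509 to 0.0736). Rela, the p65 subunit, was lower at 27.03, 27.8, 30.8 and 23.04 CPM against 39.2, 64.3, 42.97 and 53.2 CPM (log2 fold change -0.84 ± 0.17 SE, adjusted p = 0.00429), a call lost with GC content and length trends removed (adjusted p = 0.093). Cish, a STAT5-induced inhibitor of cytokine signalling, fell by 2.48 ± 0.28 on the log2 scale (adjusted p = 8.06e-05). Nfkb1, Nfkb2, Rel and Relb did not pass the test, and Tnip1 and Socs1 were left out because the place of their decimal mark was uncertain.

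Of 20 listed cytokines and antagonists, 11 were tested, of which 7 rose and 2 fell, 63.6% and 18.2% against 13.4% and 13.3% of all genes (median 0.99). The interleukin-1 family led the list. Il1b was at 22.9, 7.78, 15.9 and 7.68 CPM under LPS and 1.04, 0, 0.856 and 0.933 CPM under vehicle (log2 fold change 4.11 ± 0.72 SE, adjusted p = 0.00166), with no count in vehicle replicate 2. Il1a was at 38.5, 21.01, 32.3 and 30.7 CPM against 3.38, 1.005, 2.05 and 4.56 CPM (log2 fold change 3.38 ± 0.399 SE, adjusted p = 0.000124), and Il1rn, the receptor antagonist that opposes both, at 78.6, 82.3, 75.6 and 100.1 CPM against 9.35, 10.05, 13.01 and 18.2 CPM (log2 fold change 2.66 ± 0.21 SE, adjusted p = 9.65e-06). In all 3 genes every LPS library lay above every vehicle library. Tnf, the tumour necrosis factor, was at 51.8, 26.6, 31.8 and 27.1 CPM against 17.1, 12.7, 18.5 and 15.96 CPM (log2 fold change 0.99 ± 0.23 SE, adjusted p = 0.00909). Ebi3, the shared subunit of interleukins 27 and 35, rose by 1.46 ± 0.24 (adjusted p = 0.0011), while Tgfb1 and Csf1 fell, with log2 fold changes of -0.94 ± 0.16 (adjusted p = 0.00141) and -0.504 ± 0.15 (adjusted p = 0.0243). The call of Csf1 was lost without LPS_miR-29a replicate 3 or 4 or VEH_miR-29a replicate 3 or 4 (adjusted p = 0.0539 to 0.0765) and with GC content and length trends removed (adjusted p = 0.274). Il10, Il12a, Il12b, Il23a, Il27, Lif and Csf2 were too low to test, and Il6 was left out for an uncertain mark.

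Of 21 chemokines and chemokine receptors, 12 were tested, 6 rose and 2 fell, 50% and 16.7% against 13.4% and 13.3% of all genes (median 1.098). Besides Ccl5, the monocyte chemokines Ccl2 and Ccl9 rose by 2.13 ± 0.42 (adjusted p = 0.00337) and 2.09 ± 0.299 (adjusted p = 0.000456), and the atypical receptor Ccrl2 by 1.88 ± 0.25 (adjusted p = 0.000301). Cxcl10, the interferon-induced ligand of CXCR3, was at 3.44, 1.88, 4.86 and 1.66 CPM under LPS, with counts in vehicle replicate 4 alone (0, 0, 0 and 0.207 CPM), a ratio of counts pooled over the groups of 35.1 whose 95% counting interval ran from 9.55 to 293, and of 57.2 between mean CPM (adjusted p = 0.000312). Its exons overlap Art3 on the opposite strand, and Cxcl10 passed the filter on low counts through the LPS group alone. The receptor Cxcr4 fell, with a log2 fold change of -0.89 ± 0.18 (adjusted p = 0.00336). The receptor Ccr1 was at 1.64, 0.519, 0.41 and 0.256 CPM under LPS and 0.779, 2.34, 1.71 and 5.91 CPM under vehicle (log2 fold change -2.19 ± 0.64 SE, adjusted p = 0.0244). The Ccr1 groups overlapped, replicate 1 was higher under LPS, and its call was lost without LPS_miR-29a replicate 3 or 4 or VEH_miR-29a replicate 4 (adjusted p = 0.0566 to 0.0946) and with limma-trend (adjusted p = 0.0695). Ccl4, Ccl6 and Cxcl16 did not pass the test, while Cxcl1, Cxcl2, Cxcl3, Cxcl9 and Ccl12 were too low to test.

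Acute-phase and antimicrobial genes held 8 tested members of 18 listed, of which 7 rose, 87.5% against 13.4% of all genes, and none fell (median 2.86). Lcn2 and Marco, at 0 under vehicle, passed the filter on low counts through the LPS group alone and could only be called higher. Of the members not tested, 4 had low counts and 3 were at 0, so the share describes the tested members only. Beyond Lcn2, Saa3 and Marco, haptoglobin (Hp), which binds free haemoglobin, was at 241, 109, 150.4 and 46.5 CPM against 16.6, 7.37, 12.8 and 4.77 CPM (log2 fold change 3.74 ± 0.58 SE, adjusted p = 0.000758). In both groups the order of the replicates was the same for Hp, with replicate 1 highest and replicate 4 lowest. Ceruloplasmin (Cp), a copper-carrying ferroxidase, rose by 1.97 ± 0.28 (adjusted p = 0.000413), with exons overlapping Hps3 on the opposite strand. Slpi, a protease inhibitor, and Slc39a14, a zinc and iron importer, rose by 1.6997 ± 0.48 (adjusted p = 0.0218) and 0.89 ± 0.21 (adjusted p = 0.00848). The call of Slpi was lost without LPS_miR-29a replicate 3 or VEH_miR-29a replicate 1, 2 or 3 (adjusted p = 0.0528 to 0.0616) and with all 8 groups in 1 fit (adjusted p = 0.0697). Lyz2, the macrophage lysozyme, did not pass the test (adjusted p = 0.493), and Ptx3, S100a8 and Hamp were at 0 in all 8 libraries.

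Of 12 complement genes tested, 3 rose and 4 fell, 25% and 33.3% against 13.4% and 13.3% of all genes (median -0.21). Besides Cfb, the central component C3 was at 872, 949.9, 757 and 802 CPM against 477, 425, 301 and 210.1 CPM (log2 fold change 1.32 ± 0.23 SE, adjusted p = 0.00148) and the protease C1ra rose by 1.04 ± 0.24 (adjusted p = 0.00777). Cfp, properdin, which stabilises the convertase of the alternative pathway, fell, with a log2 fold change of -1.57 ± 0.26 (adjusted p = 0.00126). Itgax, which encodes the CD11c chain of complement receptor 4, was at 19.98, 19.97, 15.8 and 19.2 CPM against 76.9, 91.1, 62.1 and 126 CPM (log2 fold change -2.23 ± 0.22 SE, adjusted p = 3.5e-05). C1qb, C1qc, C3ar1 and C5ar1 did not pass the test, although with the replicate number as a block C1qc was lower (adjusted p = 0.0356) and C5ar1 higher (0.0283).

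Interferon-stimulated genes rose nearly throughout. Of 24 tested antiviral genes, 22 rose and 1 fell, 91.7% and 4.17% against 13.4% and 13.3% of all genes, with a median log2 fold change of 2.64. Rsad2, which encodes the antiviral radical enzyme viperin, was at 385, 376, 629 and 312 CPM against 6.49, 15.4, 9.59 and 15.3 CPM (log2 fold change 5.15 ± 0.3003 SE, adjusted p = 1.06e-06). Isg15, a ubiquitin-like modifier, was at 33.1, 18.9, 54.9 and 39.2 CPM against 1.82, 4.02, 3.77 and 2.49 CPM (log2 fold change 3.54 ± 0.497 SE, adjusted p = 0.000415). Ifit1, which binds foreign 5′ RNA ends, was at 18.2, 16.3, 33.5 and 16.2 CPM against 0.779, 0, 0.514 and 0.104 CPM, with replicate 3 highest under LPS. The 2′-5′ oligoadenylate synthetase-like genes Oasl1 and Oasl2 rose by 2.76 ± 0.18 (adjusted p = 2.07e-06) and 3.797 ± 0.22 (adjusted p = 1.06e-06), and Ifit2 by 3.798 ± 0.298 (adjusted p = 8.79e-06). Ifi27 was the one member that fell, from 101, 144, 138 and 110.3 CPM to 94.7, 77.5, 55.5 and 97.4 CPM (log2 fold change -0.63 ± 0.19 SE, adjusted p = 0.0298), a call lost without LPS_miR-29a replicate 3 or VEH_miR-29a replicate 2 or 3 (adjusted p = 0.07 to 0.0913) and with GC content and length trends removed (adjusted p = 0.071). Samd9l did not pass the test (adjusted p = 0.0934). Ifit3, Ifit3b, Ifi44 and Ifitm3 were left out for uncertain marks.

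All 12 tested guanylate-binding proteins and immunity-related GTPases, which attack the vacuoles of intracellular pathogens, rose, out of 16 listed. That is 100% of those tested against 13.4% of all genes (median 2.91). Gbp2 was at 60.1, 98.8, 82.2 and 131 CPM against 0.779, 2.68, 0.514 and 1.04 CPM (log2 fold change 6.398 ± 0.54 SE, adjusted p = 1.47e-05). Gbp5 was at 3.44, 4.41, 6.74 and 4.35 CPM, with a count in vehicle replicate 2 alone (0, 0.335, 0 and 0 CPM), a ratio of pooled counts of 115 with a 95% counting interval from 20.4 to 4540, and of 56.5 between mean CPM (adjusted p = 7.28e-05). Gbp5 passed the filter on low counts through the LPS group alone. Irgm1, a regulator of the other GTPases, rose by 2.02 ± 0.18 (adjusted p = 1.85e-05) and Gbp9, whose exons overlap Gbp8 on the same strand, by 2.89 ± 0.28 (adjusted p = 3.78e-05). Of 14 IRF and STAT transcription factor genes tested, 5 rose and 3 fell, 35.7% and 21.4% against 13.4% and 13.3% of all genes (median -0.087). Without LPS_miR-29a replicate 3 or 4 or VEH_miR-29a replicate 2, or without the filter on low counts, 1 fell. Those that rose included Irf7 at 298, 413, 334 and 326 CPM against 26.7, 61.6, 57.2 and 41.97 CPM (log2 fold change 2.93 ± 0.22 SE, adjusted p = 6.16e-06), Stat2 (1.41 ± 0.18 (adjusted p = 0.000172)), Irf9 (1.18 ± 0.18 (adjusted p = 0.000706)) and Stat3 (0.56 ± 0.14 (adjusted p = 0.0137)). Irf7 overlaps Phrf1 exons on the opposite strand and Irf9 overlaps Rnf31 on the same strand. Irf5, Stat5b and Stat6 fell, with log2 fold changes of -0.92 ± 0.17 (adjusted p = 0.00206), -0.37 ± 0.12 (adjusted p = 0.0334) and -0.53 ± 0.16 (adjusted p = 0.0282), and Irf1, Irf3 and Irf8 did not pass the test. The call of Stat3 was lost without VEH_miR-29a replicate 3 (adjusted p = 0.0531), that of Stat5b without LPS_miR-29a replicate 1, 3 or 4 or VEH_miR-29a replicate 2, 3 or 4 (adjusted p = 0.0575 to 0.0881), with GC content and length trends removed (adjusted p = 0.204), with all 8 groups in 1 fit (adjusted p = 0.0604) and without the filter on low counts (adjusted p = 0.13) and that of Stat6 without LPS_miR-29a replicate 3 or 4 or VEH_miR-29a replicate 2 (adjusted p = 0.0648 to 0.0826), with GC content and length trends removed (adjusted p = 0.0788) and without the filter on low counts (adjusted p = 0.057).

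The promoters of these genes were searched for the interferon-stimulated response element, a site read by interferon-activated transcription factors, written as GAAANNGAAA and taken on both strands. Each RefSeq promoter window (GRCm38.p6) spans 250 bases before to 50 bases after a gene's start. The letters were present in 3.44% of all 32851 windows, in 3.1% of the 10942 windows of genes tested, in 6.74% of the 1542 windows of genes that rose and in 2.03% of the 1526 windows of genes that fell. Windows were at hand for 8 of the 12 tested GTPases and 14 of the 24 tested antiviral genes, and the letters were present in 7 of the 9 windows of the former and in 7 of the 17 windows of the latter. For comparison, a kappa-B consensus was present in 10.4% of the windows of genes tested, 10.5% of those that rose and 12.1% of those that fell. A match is a description of letters and not of a bound site. Stretches of 30 bases around the match are shown for the 7 tested GTPases with a match and for 3 of the antiviral genes described above, since nearly all members of both lists rose. Each is written on the gene's strand with the 10 bases of 1 match in capitals, which read TTTC at both ends where the element lies on the other strand. The stretches of Gbp3, Irgm1 and Isg15 hold further matches that overlap the one in capitals and are not marked. Ifit1 has another match 85 bases before its start.
Gbp2 (chr3:142620594-142620623, plus strand, 59 bases before the start): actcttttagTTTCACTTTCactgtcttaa
Gbp3 (chr3:142559989-142560018, plus strand, 45 bases before the start): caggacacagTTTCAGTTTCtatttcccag
Gbp5 (chr3:142496759-142496788, plus strand, 165 bases before the start): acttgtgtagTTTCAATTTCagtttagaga
Gbp7 (chr3:142530273-142530302, plus strand, 53 bases before the start): gtgtgtgcagTTTCAGTTTCagttctccat
Irgm1 (chr11:48871425-48871454, minus strand, 24 bases before the start): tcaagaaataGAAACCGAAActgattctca
Irgm2 (chr11:58214903-58214932, plus strand, 64 bases before the start): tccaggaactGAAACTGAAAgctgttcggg
Igtp (chr11:58199512-58199541, plus strand, 34 bases before the start): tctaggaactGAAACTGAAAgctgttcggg
Ifit1 (chr19:34640775-34640804, plus strand, 104 bases before the start): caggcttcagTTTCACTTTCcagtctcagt
Isg15 (chr4:156200871-156200900, minus strand, 72 bases before the start): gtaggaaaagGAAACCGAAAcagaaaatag
Rsad2 (chr12:26456553-26456582, minus strand, 120 bases before the start): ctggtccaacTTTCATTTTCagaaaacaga
The windows of Irgm2 and Igtp, neighbouring GTPase genes on chromosome 11 that rose by 1.27 ± 0.23 (adjusted p = 0.00186) and 1.36 ± 0.21 (adjusted p = 0.000818), share the same element and the same bases after it.

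Genes of antigen presentation by MHC class I rose in part. Of 16 genes tested, 7 rose, 43.8% against 13.4% of all genes, and none fell (median 0.53). With GC content and length trends removed 11 rose, and 14 with the replicate number as a block as well. H2-T23, the non-classical molecule Qa-1, was at 109, 144, 100.1 and 134 CPM against 43.4, 51.9, 46.9 and 56.02 CPM (log2 fold change 1.27 ± 0.16 SE, adjusted p = 0.000183), and H2-K1, a classical heavy chain, at 541, 621, 490.02 and 739 CPM against 317, 394, 390.1 and 463 CPM (log2 fold change 0.61 ± 0.16 SE, adjusted p = 0.0153). Neither had a whole estimated count in any of the 8 libraries, and reads of these near-identical genes may have been split between them. Tapbp, the tapasin that loads peptide, and Erap1, which trims it, rose by 0.52 ± 0.12 (adjusted p = 0.00931) and 0.82 ± 0.13 (adjusted p = 0.000775); Erap1 overlaps Cast exons on the opposite strand and Tapbp overlaps Zbtb22 on the same strand. B2m, Psmb8, Psmb9 and Nlrc5 did not pass the test, although with the replicate number as a block B2m was higher (adjusted p = 0.00049).

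Of 8 tested genes of arginine, nitric oxide and itaconate metabolism, 2 were higher and 2 lower, 25% and 25% against 13.4% and 13.3% of all genes. Irg1, which makes itaconate from cis-aconitate, was at 548, 313, 379 and 237 CPM against 11.7, 7.37, 7.88 and 6.63 CPM (log2 fold change 5.46 ± 0.32 SE, adjusted p = 1.06e-06). Nos2, the inducible nitric oxide synthase, was at 36.04, 26.8, 42.8 and 16.6 CPM against 1.298, 4.69, 1.03 and 12.5 CPM (log2 fold change 3.001 ± 0.63 SE, adjusted p = 0.00467). Vehicle replicate 4 held the highest vehicle level of Nos2 and LPS replicate 4 the lowest LPS level, so that the groups came close without overlapping. The arginine importer Slc7a2 was lower (-0.44 ± 0.14 (adjusted p = 0.037)), a call that was lost without any of LPS_miR-29a replicates 1, 3 and 4 or VEH_miR-29a replicates 1, 2 and 3 (adjusted p from 0.0507 to 0.105) or without the filter on low counts (adjusted p = 0.109), and its groups overlapped. Ass1, Asl, Gch1 and Odc1 did not pass the test.

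Of 16 tested genes of the oxidative burst and its antioxidant defence, 10 rose and 1 fell, 62.5% and 6.25% against 13.4% and 13.3% of all genes (median 0.901). Cybb, the catalytic subunit of the phagocyte NADPH oxidase, was at 1499, 1334, 1395 and 1012 CPM against 502, 409, 402 and 489 CPM (log2 fold change 1.53 ± 0.15 SE, adjusted p = 4.3e-05). The antioxidant genes that rose included both subunits of the glutathione-making glutamate-cysteine ligase, Gclm (1.58 ± 0.17 (adjusted p = 7.5e-05)) and Gclc (1.05 ± 0.15 (adjusted p = 0.000432)), the cystine importer Slc7a11 at 47.5, 41.2, 59.99 and 65.5 CPM against 20.5, 20.4, 20.5 and 23.4 CPM (log2 fold change 1.29 ± 0.19 SE, adjusted p = 0.000513), and the peroxiredoxin Prdx1 (1.15 ± 0.16 (adjusted p = 0.000392)). Gclm and Prdx1 had no whole estimated counts, and Gclm overlaps the predicted gene Gm6061. Sod2, Cat, Hmox1, Txnrd1 and Srxn1 also rose.

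Of 11 tested genes of alternative activation and coagulation in macrophages, 7 fell and 1 rose, 63.6% and 9.09% against 13.3% and 13.4% of all genes (median -1.62). Beside F13a1 and Agt, the mannose receptor Mrc1 was at 58.97, 42.7, 60.7 and 37.1 CPM against 343, 129, 179 and 151 CPM (log2 fold change -1.93 ± 0.27 SE, adjusted p = 0.000426), and Sepp1, the selenium carrier selenoprotein P, fell, with a log2 fold change of -2.0997 ± 0.23 (adjusted p = 6.8e-05). The lectins Clec10a and Mgl2 and the plasminogen activator Plau fell, with log2 fold changes of -0.9003 ± 0.17 (adjusted p = 0.00252), -2.41 ± 0.298 (adjusted p = 0.000171) and -1.62 ± 0.31 (adjusted p = 0.00263). Msr1, a scavenger receptor, was the one member that rose, at 38.8, 29.6, 40.4 and 47.7 CPM against 11.2, 5.02, 5.65 and 9.33 CPM (log2 fold change 2.305 ± 0.26 SE, adjusted p = 0.000104).

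Several genes that mark resting microglia in the brain had too few counts to test in these 8 libraries. Of 20 listed, 14 were tested, 6 fell and 1 rose, 42.9% and 7.14% against 13.3% and 13.4% of all genes (median -0.32). Without VEH_miR-29a replicate 1 or 2, 6 fell and none rose. Cx3cr1, Sall1, Siglech, Olfml3, Fcrls and Slc2a5 were too low to test. P2ry12 and Tmem119, at most 7.70 and 7.39 CPM in any of the 8 libraries, did not pass the test. Csf1r, the receptor for the microglial growth factors, was at 401, 425, 335 and 304 CPM against 872, 845, 736 and 716 CPM (log2 fold change -1.13 ± 0.14 SE, adjusted p = 0.000219), and the lysophosphatidylserine receptor Gpr34 at 1.47, 1.49, 1.52 and 1.41 CPM against 11.4, 8.71, 5.82 and 10.3 CPM (log2 fold change -2.54 ± 0.301 SE, adjusted p = 0.000129). Csf1r exons overlap Hmgxb3 on the opposite strand. Cst3, an abundant secreted protein of microglia, fell, with a log2 fold change of -1.396 ± 0.16 (adjusted p = 0.000111).

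Of 23 genes of the Trem2 pathway and of disease-associated microglia, all tested, 12 fell and 3 rose, 52.2% and 13% against 13.3% and 13.4% of all genes (median -0.47). Trem2, the lipid-sensing receptor of phagocytic microglia, was at 121, 148, 98.1 and 139 CPM against 324, 536, 417 and 355 CPM (log2 fold change -1.68 ± 0.18 SE, adjusted p = 6.59e-05), and its signalling partner Tyrobp at 215, 203, 153 and 241 CPM against 432, 672, 464 and 399.8 CPM (log2 fold change -1.27 ± 0.19 SE, adjusted p = 0.000533). Apoe, the lipid carrier, was at 967, 887, 633 and 929 CPM against 3388, 2843, 2565 and 2743 CPM (log2 fold change -1.76 ± 0.16 SE, adjusted p = 2.63e-05). In these 3 genes every LPS library lay below every vehicle library. Lpl, Clec7a, Cd9, Igf1 and Timp2 fell as well. The call of Lpl was lost without LPS_miR-29a replicate 3 or VEH_miR-29a replicate 3 or 4 (adjusted p = 0.0799 to 0.0912) and that of Clec7a without LPS_miR-29a replicate 2, 3 or 4 or VEH_miR-29a replicate 1, 3 or 4 (adjusted p = 0.0651 to 0.0865), with all 8 groups in 1 fit (adjusted p = 0.0903) and without the filter on low counts (adjusted p = 0.0528), and the groups of Clec7a and Igf1 overlapped. Axl, a receptor for apoptotic cells, rose from 4.93, 14.4, 6.33 and 6.94 CPM to 38.003, 53.6, 37.97 and 25.7 CPM (log2 fold change 2.401 ± 0.31 SE, adjusted p = 0.000253) and Spp1, the osteopontin gene, was at 7816, 4998, 7478 and 7780.2 CPM against 3093, 3139, 3529 and 5002 CPM (log2 fold change 0.95 ± 0.198 SE, adjusted p = 0.00445). The Spp1 groups overlapped, since LPS replicate 2 lay below vehicle replicate 4, and its call was lost with GC content and length trends removed (adjusted p = 0.0638). Cd68, Ctsb, Ctsd and Gpnmb did not pass the test, although with the replicate number as a block Cd68 and Gpnmb were lower (adjusted p = 0.00908 and 0.011).

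Phagocytic receptors changed in both directions. Of 17 tested, 4 rose and 5 fell, 23.5% and 29.4% against 13.4% and 13.3% of all genes tested (median -0.22). Without LPS_miR-29a replicate 3 or 4 or VEH_miR-29a replicate 3, 3 fell. The high-affinity immunoglobulin receptor Fcgr1 was at 163, 155, 173 and 177 CPM against 61.5, 52.6, 56.5 and 47.98 CPM (log2 fold change 1.62 ± 0.13 SE, adjusted p = 1.03e-05), while the low-affinity Fcgr3 was at 201, 177, 149.8 and 217 CPM against 499.7, 428, 516 and 433 CPM (log2 fold change -1.34 ± 0.14 SE, adjusted p = 6.8e-05). No estimated count of Fcgr3 was whole. Among receptors for apoptotic cells, Axl rose and its relative Mertk fell, with a log2 fold change of -0.75 ± 0.16 (adjusted p = 0.00499), and the scavenger receptors Marco and Msr1 rose while Stab2 fell, with a log2 fold change of -1.55 ± 0.34 (adjusted p = 0.00542). Among the 28 lysosomal and phagocytic genes that the study named as targets of its miRNAs, 27 were tested, 10 fell and 5 rose, 37% and 18.5% against 13.3% and 13.4% of all genes (median -0.14). The lysosomal mannosidase Man2b1 was at 140.4, 171, 137 and 158 CPM against 450.02, 453, 353 and 399 CPM (log2 fold change -1.45 ± 0.13 SE, adjusted p = 2.63e-05) and the sulphatase Arsb at 96.2, 95.1, 98.6 and 95.9 CPM against 221, 283, 299 and 403 CPM (log2 fold change -1.61 ± 0.16 SE, adjusted p = 4.88e-05). Gm2a and Hexa, which act together on GM2 ganglioside, fell, with log2 fold changes of -1.21 ± 0.14 (adjusted p = 0.000121) and -0.999 ± 0.15 (adjusted p = 0.000733), whereas Lamp2, Lipa and Ppt1 rose. The call of Lamp2 was lost without LPS_miR-29a replicate 1 or 3 or VEH_miR-29a replicate 2, 3 or 4 (adjusted p = 0.0665 to 0.0991) and with GC content and length trends removed (adjusted p = 0.469), that of Lipa without LPS_miR-29a replicate 4 or VEH_miR-29a replicate 3 or 4 (adjusted p = 0.0503 to 0.062) and with GC content and length trends removed (adjusted p = 0.361) and that of Ppt1 with GC content and length trends removed (adjusted p = 0.0727). The other 2 members that rose were Gla and Cd164. The call of Gla was lost without LPS_miR-29a replicate 1 or VEH_miR-29a replicate 1, 2 or 3 (adjusted p = 0.0562 to 0.107) and with GC content and length trends removed (adjusted p = 0.157). The call of Cd164 was lost without LPS_miR-29a replicate 1, 2, 3 or 4 or VEH_miR-29a replicate 1, 2 or 3 (adjusted p = 0.0501 to 0.129), with GC content and length trends removed (adjusted p = 0.774), with all 8 groups in 1 fit (adjusted p = 0.0529) and with edgeR (adjusted p = 0.0512). Of the 5 that rose, none was called with GC content and length trends removed (8 fell there), while with the replicate number as a block as well the list had 3 higher and 12 lower genes. Without 1 library the list had 1 to 4 higher and 7 to 10 lower genes, the lowest count of higher genes being that without VEH_miR-29a replicate 3. The Lamp2 groups overlapped. Of the study's list of 30 pro-inflammatory genes, 24 were tested, 8 rose and 2, Nlrp1b and Serpinf1, fell, 33.3% and 8.33% against 13.4% and 13.3% of all genes (median 0.31). Without VEH_miR-29a replicate 4, 8 rose and 4 fell, and with DESeq2 9 and 4. The study drew up both lists within the same work, so their counts are a description and not independent evidence of a direction.

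**Figure D2:**
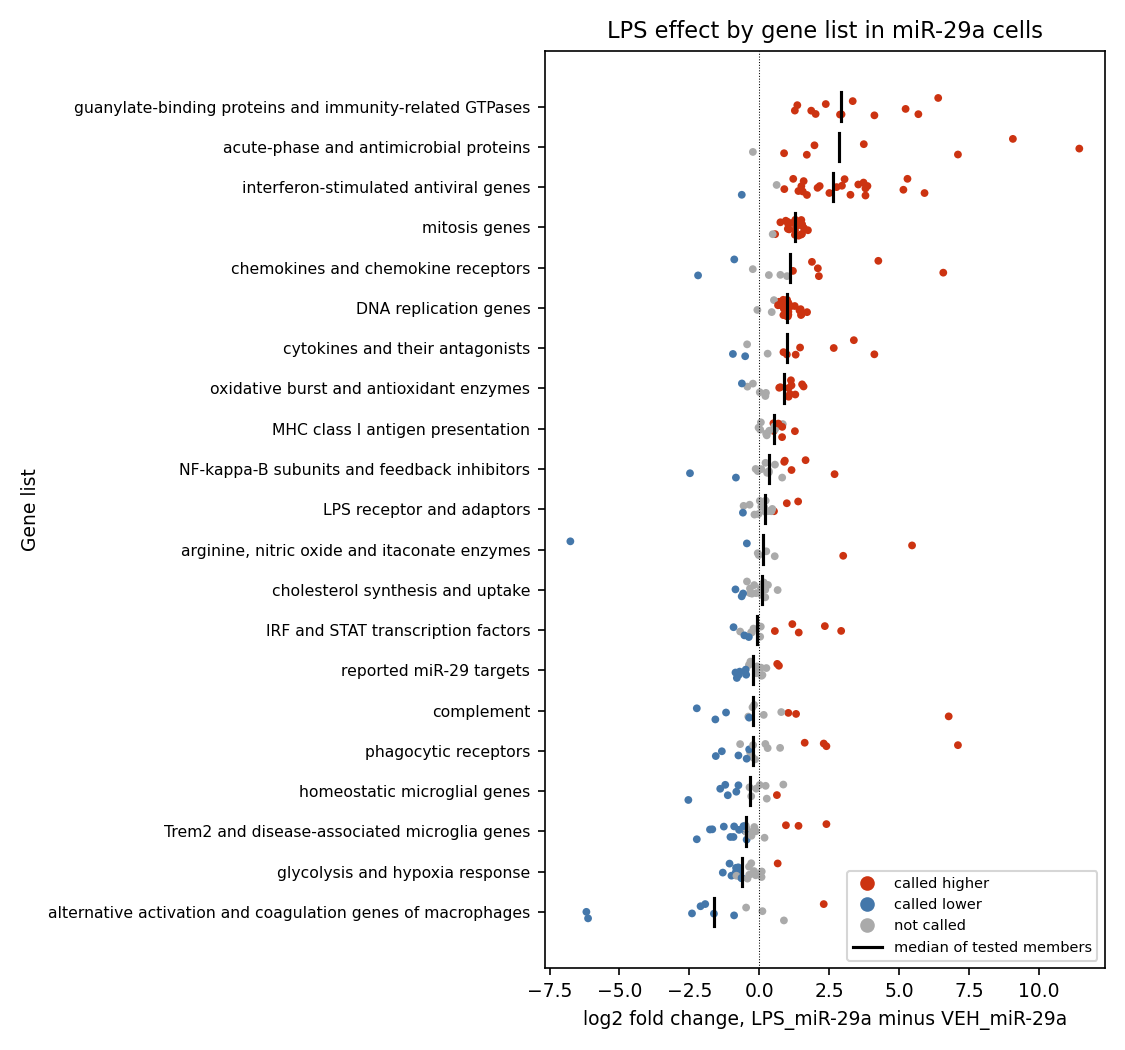
Log2 fold change of LPS_miR-29a over VEH_miR-29a for each tested member of 21 gene lists, 1 point per gene, red where called higher, blue where called lower and grey where not called, with the list median as a black bar. The GTPase, acute-phase and antiviral lists have medians of 2.91, 2.86 and 2.64, and the alternative activation list has the lowest median, −1.62.

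Glycolytic genes fell in part. Of 21 tested genes of glycolysis and the hypoxia response, 10 fell and 1 rose, 47.6% and 4.76% against 13.3% and 13.4% of all genes (median -0.63). Gapdh, the glyceraldehyde-3-phosphate dehydrogenase often used as a reference gene, was at 1831, 1301, 1268 and 1303 CPM against 2629.7, 3276, 2909.6 and 2493 CPM (log2 fold change -0.99 ± 0.16 SE, adjusted p = 0.000989). Eno1, enolase 1, was at 1378, 1179.6, 1011 and 775 CPM against 1878, 2488, 2204 and 2375 CPM (log2 fold change -1.06 ± 0.18 SE, adjusted p = 0.00145), and Gpi1 and Aldoa fell, with log2 fold changes of -1.304 ± 0.21 (adjusted p = 0.000944) and -0.72 ± 0.14 (adjusted p = 0.00307), the latter call being lost with GC content and length trends removed (-0.43, adjusted p = 0.0655). None of these 4 genes, which have many processed pseudogenes, had a whole estimated count in any library. Hif1a, the oxygen-regulated transcription factor, was the one member that rose, at 351, 296, 355 and 286 CPM against 195, 171, 208 and 244 CPM (log2 fold change 0.66 ± 0.14 SE, adjusted p = 0.00575). Of 21 tested genes of cholesterol synthesis and uptake, 3 fell, 14.3% against 13.3% of all genes, and none rose (median 0.081). With the replicate number as a block, 5 fell and 1 rose, and without LPS_miR-29a replicate 1 or 3, 1 fell. The exporter Abcg1 was at 128, 167, 125 and 145 CPM against 253, 258, 280.3 and 224 CPM (log2 fold change -0.85 ± 0.14 SE, adjusted p = 0.000908). The other 2 calls were weak. Dhcr7 (-0.63 ± 0.201 (adjusted p = 0.0365)) was lost without any of LPS_miR-29a replicates 1, 3 and 4 or VEH_miR-29a replicates 1 and 2 (adjusted p from 0.0746 to 0.0999) or without the filter on low counts (adjusted p = 0.0714), and Srebf2 (-0.58 ± 0.16 (adjusted p = 0.0191)) without LPS_miR-29a replicate 1 or 3 (adjusted p from 0.0526 to 0.0554) or with GC content and length trends removed (adjusted p = 0.242). The Dhcr7 groups overlapped.

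Genes of the cell cycle rose with few exceptions. Of 24 DNA replication genes, 21 rose, 87.5% against 13.4% of all genes, and none fell (median 0.99). Without VEH_miR-29a replicate 3, 16 rose, and 18 without VEH_miR-29a replicate 4. Mcm4, a subunit of the replicative helicase, was at 96.8, 105, 103 and 96.5 CPM against 60.2, 52.9, 46.6 and 45.5 CPM (log2 fold change 0.995 ± 0.13 SE, adjusted p = 0.000307), and Rrm2, of the ribonucleotide reductase, at 53.2, 76.97, 54.1 and 48.9 CPM against 27.3, 24.8, 19.9 and 15.8 CPM (log2 fold change 1.49 ± 0.21 SE, adjusted p = 0.000438). Cdc45 and Gins1, which complete the helicase, rose by 1.71 ± 0.25 (adjusted p = 0.000505) and 1.44 ± 0.23 (adjusted p = 0.000934), and Cdc45 overlaps Ufd1l exons on the opposite strand. Pcna, Cdt1 and E2f1 did not pass the test, although with the replicate number as a block Pcna was higher (adjusted p = 0.00867). Of 22 mitosis genes, 21 rose, 95.5% against 13.4% of all genes, and none fell (median 1.28). Top2a, the topoisomerase that untangles sister chromatids, was at 490.4, 573, 598 and 328 CPM against 147, 150.1, 119 and 165 CPM (log2 fold change 1.74 ± 0.19 SE, adjusted p = 7.33e-05). Ccnb1, Kif11 and Cenpe, the cyclin, spindle motor and kinetochore motor of mitosis, rose by 1.53 ± 0.203 (adjusted p = 0.000277), 1.43 ± 0.199 (adjusted p = 0.000386) and 1.597 ± 0.23 (adjusted p = 0.000438), with no whole estimated count for Ccnb1. Cdc20 was the one member that did not pass the test (adjusted p = 0.149).

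Reported targets of miR-29 were described under LPS with the mimic in both groups. Of 28 listed, 16 were tested, 6 fell and 2 rose, 37.5% and 12.5% against 13.3% and 13.4% of all genes tested (median -0.21, with 3 lower and 1 higher without VEH_miR-29a replicate 3), and the collagen genes were at 0 or too low to test. Dnmt3a, a de novo DNA methyltransferase, was at 114, 123, 107 and 124 CPM against 179, 215, 204 and 252 CPM (log2 fold change -0.85 ± 0.13 SE, adjusted p = 0.000878). Its relative Dnmt3b was at 8.35, 11.9, 9.84 and 9.86 CPM against 7.25, 14.4, 11.5 and 10.9 CPM and did not pass the test (log2 fold change -0.082 ± 0.22 SE, adjusted p = 0.806). Tet3, which oxidises methylcytosine, fell, with a log2 fold change of -0.7003 ± 0.13 (adjusted p = 0.00244), a call lost with GC content and length trends removed (-0.38, adjusted p = 0.0624). Tdg, which removes the products, rose by 0.64 ± 0.17 (adjusted p = 0.0174). Lpl, lipoprotein lipase, was at 1298, 1178, 1116 and 1209 CPM against 1436, 1509, 1809 and 1995 CPM (log2 fold change -0.47 ± 0.14 SE, adjusted p = 0.0297), a call that depended on single libraries, as did that of Tdg, lost without VEH_miR-29a replicate 2, 3 or 4 (adjusted p = 0.051 to 0.0737). Nav1 fell, with a log2 fold change of -0.73 ± 0.19 (adjusted p = 0.0157) and lost its call without VEH_miR-29a replicate 3 (adjusted p = 0.0539), and its groups overlapped.

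Whether LPS acted differently in miR-29a cells than in scramble cells was tested as the difference of the 2 LPS effects over 16 libraries, and CPM values are scaled over those 16 here and for miR-146a cells below. Of 12412 genes tested, 2 passed, 0.0161%, and 801 had an unadjusted p under 0.05, while 19 passed with DESeq2 and 15 with the replicate number as a block. Myom3, a sarcomeric M-band protein, was at 27.6, 26.8, 22.7 and 22.1 CPM against 102, 156, 134 and 158 CPM in miR-29a cells. In scramble cells it was at 57.2, 54.7, 59.1 and 57.5 CPM against 108, 139, 107 and 132 CPM. Its LPS effect was -2.46 ± 0.15 in miR-29a cells and -1.08 ± 0.15 in scramble cells (difference -1.38 ± 0.21 SE, adjusted p = 0.0242), so LPS lowered it in both, and further in miR-29a cells. Appl2, an endosomal adaptor protein, was at 88.6, 68.2, 66.3 and 67.2 CPM against 172, 167, 151 and 185 CPM in miR-29a cells and at 137, 140.1, 122 and 139 CPM against 147, 152, 128 and 154 CPM in scramble cells. Its effects were -1.23 ± 0.12 and -0.11 ± 0.12 (difference -1.12 ± 0.17 SE, adjusted p = 0.0242). The Myom3 call held without VEH_scramble replicate 2, VEH_miR-29a replicate 1 or LPS_miR-29a replicate 1 and was lost without any of the other 13 libraries, and that of Appl2 held without VEH_scramble replicate 2, LPS_scramble replicate 3 or LPS_miR-29a replicate 1 and was lost without any of the other 13 (adjusted p from 0.0533 to 0.107 for either gene). In simulated data of this design 0% of 1.5-fold, 28.4% of 2-fold and 95.7% of 4-fold differences were recovered, so small differences would be missed.

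**Figure D3:**
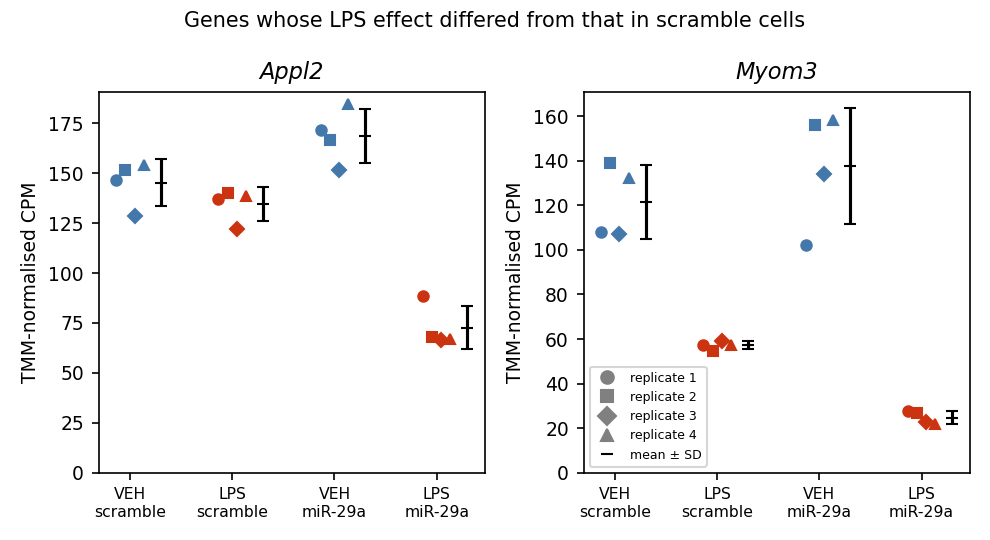
TMM-normalised CPM of Appl2 and Myom3 in each library of the scramble and miR-29a groups, 1 symbol per replicate, blue for vehicle and red for LPS, with the mean and SD of 4 libraries. The LPS_miR-29a libraries of Appl2 sit between 66.3 and 88.6 CPM, below all other libraries, and those of Myom3 between 22.1 and 27.6 CPM.

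For the rest of the genes the effects are given side by side. Of the 3226 genes that LPS changed in miR-29a cells and that were tested in the larger fit, 3139 had an LPS effect of the same sign in scramble cells. The antiviral list had a median effect of 2.64 in miR-29a cells and 2.16 in scramble cells, the GTPases 2.89 and 2.25, and the acute-phase genes 2.86 and 2.81. The mitosis list stood at 1.28 and 1.43 and the alternative activation list at -1.62 and -1.26. Glycolysis and the hypoxia response had a median of -0.63 in miR-29a cells and 0.013 in scramble cells, complement -0.21 and 0.51, and cytokines 0.99 and 0.5997. No member of any of these lists passed the test of the difference from scramble cells, Tnf included (LPS effect in scramble cells -0.11, adjusted p of the difference 0.489). Structural RNA genes took 4.41 to 18.8% of counts in VEH_miR-29a and 6.71 to 11.9% in VEH_scramble libraries, and its part in these values was not tested.

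**Figure D4:**
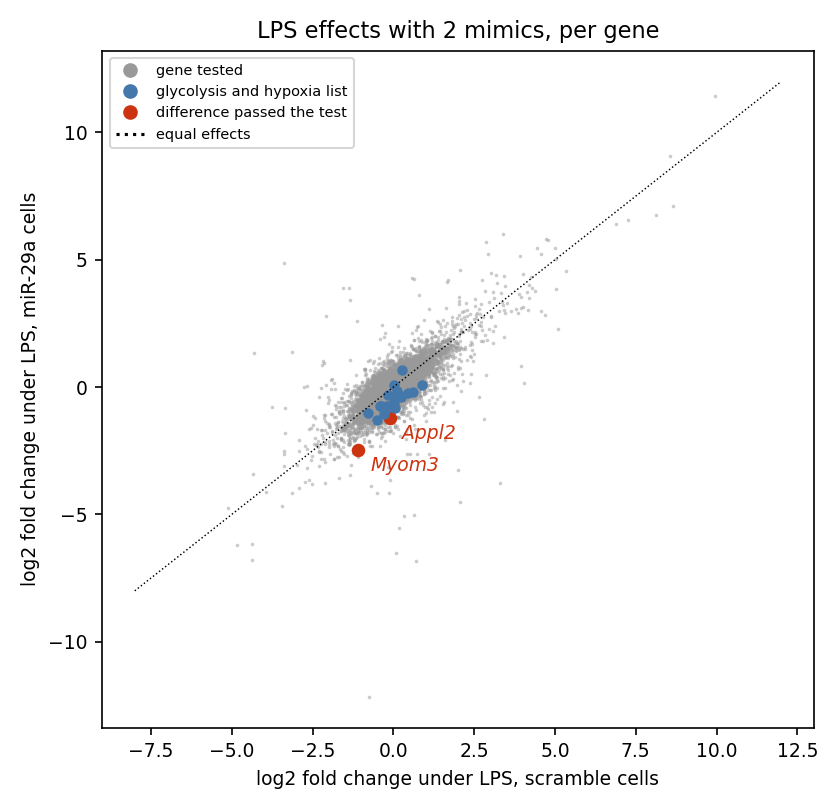
LPS effect of each of the 12412 genes tested, as log2 fold change in scramble cells on the horizontal and in miR-29a cells on the vertical axis, with the line of equal effects dotted. The glycolysis and hypoxia list is in blue, with medians of -0.63 in miR-29a and 0.013 in scramble cells, and Myom3 and Appl2, which passed the test of the difference, are in red.

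The same difference was tested against cells with a mimic of miR-146a, which is known for repressing Irak1 and Traf6. Of 12420 genes tested, 131 passed, 1.05%, of which 20 had a higher LPS effect in miR-29a cells and 111 a lower one, and 2371 had an unadjusted p under 0.05. With DESeq2, 570 genes passed, 208 with a higher and 362 with a lower effect. With the replicate number as a block, 1012 passed, 363 higher and 649 lower. Among the 131 genes, the 5 highest differences were those of Ifit2, Herc6, Trim12c, Casp4 and Serp1, while of the 24 antiviral genes listed and tested 2 passed, Ifit2 with a higher and Ifi27 with a lower effect in miR-29a cells. Ifit2 was at 168, 192, 305 and 126 CPM against 13.2, 19.2, 13.8 and 11.1 CPM in miR-29a cells and at 57.8, 57.7, 63.7 and 20.7 CPM against 15.4, 26.3, 18.1 and 13.5 CPM in miR-146a cells, so its LPS effect was 3.81 ± 0.37 and 1.45 ± 0.35 (difference 2.36 ± 0.51 SE, adjusted p = 0.0319). Herc6, the ligase for ISG15 in mice, had effects of 2.599 ± 0.22 and 0.58 ± 0.23 (difference 2.02 ± 0.32 SE, adjusted p = 0.00686). Casp4, the cytosolic LPS sensor known as caspase-11, had effects of 2.73 ± 0.28 and 0.93 ± 0.26 (difference 1.7999 ± 0.38 SE, adjusted p = 0.031). The Trim5 relative Trim12c and the endoplasmic reticulum stress protein Serp1 followed, with differences of 1.91 ± 0.34 SE, adjusted p = 0.0116 and 1.55 ± 0.35 SE, adjusted p = 0.0378. Serp1 overlaps Eif2a exons on the opposite strand, and no estimated count of Trim12c was whole. Each of these 5 genes had a positive LPS effect with both mimics.

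The genes with the lowest differences from miR-146a cells were of mixed kinds. Agt was at 3.08, 1.29, 0.799 and 0.63 CPM against 84.02, 95.999, 109 and 53.4 CPM in miR-29a cells and at 3.89, 2.5002, 3.67 and 0.566 CPM against 23.3, 16.4, 29.3 and 13.5 CPM in miR-146a cells (effects -6.14 ± 0.53 and -2.85 ± 0.51, difference -3.29 ± 0.74 SE, adjusted p = 0.0377). Grin1, a subunit of the NMDA receptor, and Grb10, an adaptor of the insulin receptor, had effects of -3.46 ± 0.56 and -3.08 ± 0.53 in miR-29a cells against 0.41 ± 0.404 and 0.53 ± 0.45 in miR-146a cells (differences -3.87 ± 0.69 SE, adjusted p = 0.0116 and -3.61 ± 0.69 SE, adjusted p = 0.0181). The processed pseudogenes Gm8451 and Gm7734 had differences of -4.61 ± 1.04 SE, adjusted p = 0.0378 and -3.63 ± 0.66 SE, adjusted p = 0.0131, with at most 1 whole estimated count in 8 libraries. Gm8451 was at 3.83, 1.25, 3.75 and 6.01 CPM under LPS and 0, 0, 0 and 0.809 CPM under vehicle in miR-146a cells, so its fitted difference depends on the prior count and is no bound. Among listed genes, 4 of the glycolysis list passed this test, Gapdh, Aldoa, Eno1 and Tpi1, all lower in their LPS effect in miR-29a cells and out of 21 members, as did 3 of the 11 alternative activation and coagulation genes. Apoe, Laptm5, Fcgr3, Gpr34, F13a1, Clec10a, Irf5, Itgam, Ifi27 and Sgsh were lower too, as were Myom3 and Appl2, while Prdx1 was higher. Across the 131 genes, the fitted LPS effects had opposite signs in 68, and in 25 all 4 same-numbered pairs moved one way with one mimic and the opposite way with the other. The count moved by over 1.5 times without any of 10 libraries, to 43, 39 and 81 without VEH_miR-29a replicates 2, 3 and 4, to 269 and 22 without LPS_miR-29a replicates 2 and 3, to 41, 48 and 73 without VEH_miR-146a replicates 1, 2 and 3, and to 75 and 29 without LPS_miR-146a replicates 2 and 3. Of the 5 highest and 5 lowest genes, Herc6 and Trim12c passed in every fit that left out 1 library. VEH_miR-146a replicate 1 held 1669551 counts, the fewest of the libraries compared.

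**Figure D5:**
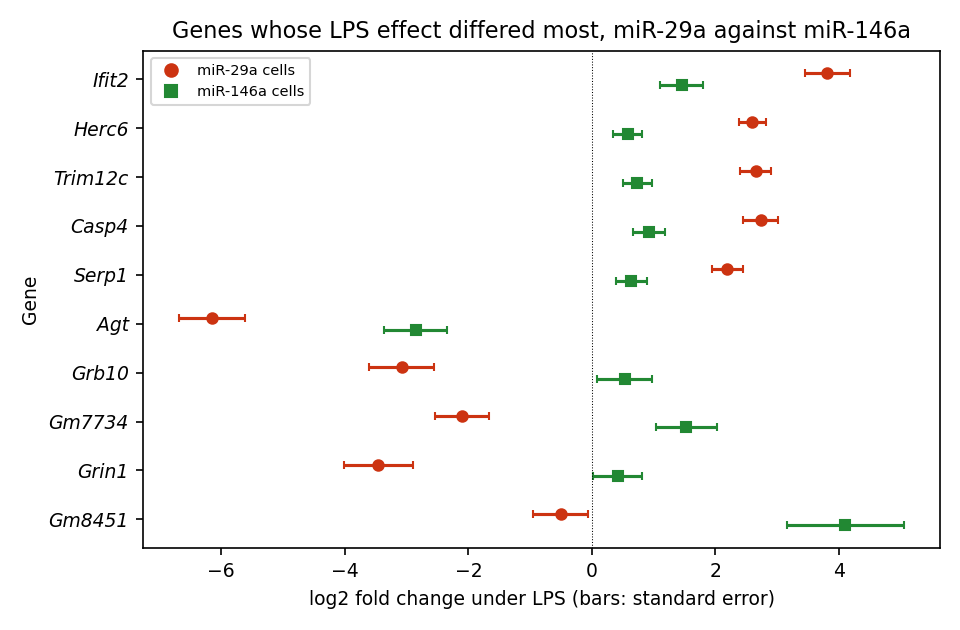
LPS effect of the 5 highest and 5 lowest genes by their difference between miR-29a and miR-146a cells among the 131 that passed, as log2 fold change with SE bars, red circles for miR-29a cells and green squares for miR-146a cells. The 5 upper genes are positive with both mimics.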

How the data were processed

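Total RNA of 32 BV-2 cultures was depleted of ribosomal RNA, made into single-end libraries and sequenced by the authors, who aligned the reads to GRCm38 with the nf-core rnaseq workflow. The deposited values are estimated counts per gene in 1 table of 45706 genes, the build and the names limma and edgeR being given in the submitters' processing notes. Strand setting and aligner version are not given in the sources used here. The deposited values carry no decimal marks, so that a gene's values can differ by factors of 10 or more between libraries for this reason alone. Each number was read with 0 to 3 lost decimals by its probability given the gene's level in the other libraries and its last digits. Of the values above 0 in the 8 libraries, 29.1% were given lost decimals and 1.26% stayed below a probability of 0.9. Of 27055 genes above 0 in these libraries, 1484 with such a value and 13303 with low counts (filterByExpr) were left out.

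Counts were scaled by TMM and tested with limma 3.58.1 voom (edgeR 4.0.16, R 4.3.3) on the 2 groups without rounding, and called at a Benjamini-Hochberg adjusted p under 0.05. The study likewise gives filterByExpr, TMM and a limma or edgeR model per pair of conditions but does not name its log transformation, and voom was chosen here. Differences of LPS effects were tested over 16 libraries. Cells with the miR-7a mimic were left out of the comparisons because replicates 2 to 4 of their vehicle libraries stood apart (35.5 to 38.6% of counts from structural RNA, against 4.23% in replicate 1). DESeq2 1.42.0 and edgeR quasi-likelihood on rounded counts were alternatives. The replicate numbers paired the samples of the 2 groups: same-numbered libraries correlated in their deviations from the group means by 0.202 to 0.334, and each library correlated best with its own number. The calls given above come from the fit without this pairing, except where the block is named. Intervals and floors (3 counts) cover counting error only. In simulated data for LPS_miR-29a against VEH_miR-29a (12296 genes), 9.52% of 1.5-fold, 59.7% of 2-fold and 100% of 4-fold changes were recovered, with 3 false calls among 118.

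Genes were named by a rule: the 10 most upregulated and 10 most downregulated called protein-coding genes with at least 5 CPM in the higher group and 1 direction in all 4 pairs, up to 4 called members per list with the smallest adjusted p, members needed to account for a list, 12 fixed genes, and, for differences of effects, all genes called or the 5 highest and 5 lowest. The comparison, the 28 gene lists and the tests were chosen with earlier results of these data known. Promoter and miRNA sequences came from RefSeq GRCm38.p6. Some named genes are not reported here.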

Additional observations from a re-analysis of the deposited data

Results flagged for a closer look

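A gap test (Dixon, the gap of the highest or lowest of 4 libraries to its neighbour as a share of the group's range) was run on 228 groups of named genes and library measures and found 11 beyond the 95% critical value, where chance alone gives about 1 in 20. In the LPS_miR-29a group, Ifit1 stood apart in replicate 3 (share 0.886, 33.5 CPM against 18.2 CPM in the next library), Ccl24 in replicate 4 (0.887), Slc7a2 in replicate 2 (0.89), Gapdh in replicate 1 (0.937), Srebf2 in replicate 2 (0.987), Dhcr7 in replicate 2 (0.862) and Appl2 in replicate 1 (0.931). In the VEH_miR-29a group, Aldoa stood apart in replicate 1 (0.88) and Trim12c in replicate 1 (0.832). Cxcl10 in vehicle replicate 4 and Gbp5 in vehicle replicate 2 had a share of 1, since the other 3 vehicle libraries held no count.

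The LPS effect differed between mimics, by the test of the difference itself, for 12 named genes. Against scramble cells these were Myom3 (−1.38 on the log2 scale) and Appl2 (−1.12). Against miR-146a cells they were Gm8451 (−4.61, a fitted value that depends on the prior count, since 3 of its 4 VEH_miR-146a libraries held no count), Grin1 (−3.87), Gm7734 (−3.63), Grb10 (−3.61), Agt (−3.29), Serp1 (1.55), Casp4 (1.80), Trim12c (1.91), Herc6 (2.02) and Ifit2 (2.36). The causes were not tested.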

How the results depend on the processing

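The count of genes changed by LPS in miR-29a cells (3278) stayed within 1.5 times under every alternative run except the values as deposited: 4602 with the replicate number as a block, 3332 with edgeR, 3726 with DESeq2, 2977 without the filter on low counts, 2758 with GC content and length trends removed by limma-trend (4085 with the block as well), 3326 with limma-trend alone, an alternative added after the data were seen, and 2214 to 3690 with 1 library left out. Without the filter the median log2 fold change over genes was −0.31. Without VEH_miR-29a replicate 2, the vehicle library with the most structural RNA, 2535 genes were called. The genes called were not always the same ones. Without VEH_miR-29a replicate 3, 2150 of the 3278 kept their call. With GC content and length trends removed, 2105 of the 3269 tested there did, and 2560 with the block as well. With the values as deposited, 229 genes were called. That setting also reversed Serpinf1 (3.79), Apoe (0.39), Timp2 (1.43), Dnmt3a (1.86), Abcg1 (1.51), Cst3 (3.55), Laptm5 (0.070), Flt1 (2.54), Irak1 (0.12), Slc7a2 (2.84), Tet3 (1.37), Myom3 (1.06), Ifit2 (−0.34), Dhcr7 (7.21) and Gm7734 (0.91), and the difference of Appl2 from scramble cells (0.89), as follows from its lost decimal marks.

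Differences from scramble cells (2 genes) numbered 15 with the replicate block, 19 with DESeq2, 5 without the filter, 6 as deposited and 0 to 3 with 1 library left out. Differences from miR-146a cells (131 genes) numbered 1012 with the block, 570 with DESeq2, 86 without the filter, 6 as deposited and 22 to 269 with 1 library left out; the cause of these shifts was not tested. Over the 16 libraries of each of these fits, the same-numbered samples correlated by 0.0286 to 0.374 with scramble and by 0.0483 to 0.384 with miR-146a cells. Because the lowest values were small, the numbers were not taken as pairs there, although within scramble cells alone they correlated by 0.125 to 0.269. Correlations between different numbers were not computed for these fits, so the values do not settle that choice. The block changed no call of the 116 tested named genes, and 29 other listed genes gained a call while none lost one. With the block, the lower genes numbered 2 in place of 1 among the LPS receptor and adaptors and among the oxidative burst genes, the higher ones 2 in place of 1 among alternative activation genes, and the pro-inflammatory genes of the study had 10 higher and 4 lower in place of 8 and 2. Tlr4, Slc7a2, Dhcr7, Srebf2 and Nav1 lost their calls without 1 or more libraries; Tlr4, Aldoa, Tet3 and Srebf2 lost theirs with GC content and length removed, and Slc7a2, Dhcr7 and the differences of Agt and Ifit2 from miR-146a cells without the filter (adjusted p = 0.0568 and 0.0864 for the differences). DESeq2 gave no adjusted p for the differences of Grin1, Grb10 and Gm7734. Depth limits genes with few counts: 13303 genes could not be tested.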

Other observations

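Among 10 defining markers of microglia and macrophages, 2 rose and 5 fell, 20% and 50% against 13.4% and 13.3% of all genes, and 3 rose and 6 fell with the replicate number as a block. Laptm5, a lysosomal membrane protein, was at 474, 559.9, 461 and 603 CPM under LPS and 1359, 1604, 1673 and 1785 CPM under vehicle (log2 fold change -1.61 ± 0.14 SE, adjusted p = 2.14e-05), and Spi1, the myeloid transcription factor PU.1, at 83.5, 73.4, 91.3 and 103 CPM against 142, 153, 186 and 136 CPM (log2 fold change -0.82 ± 0.15 SE, adjusted p = 0.00206). Adgre1, the F4/80 antigen, rose from 712, 600.5, 519.6 and 574 CPM to 1045, 1090.2, 832 and 1011 CPM (log2 fold change 0.73 ± 0.14 SE, adjusted p = 0.00334). The groups did not overlap in any of these 3 genes, and the call of Spi1 was lost with GC content and length trends removed (adjusted p = 0.0936).

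Of 8 endothelial markers 3 were tested. Vwf, the von Willebrand factor, was at 38.8, 57.3, 34.9 and 68.9 CPM against 187, 260.2, 201 and 263 CPM (log2 fold change -2.23 ± 0.21 SE, adjusted p = 3.15e-05) and Flt1, a VEGF receptor, at 187, 135, 198 and 135 CPM against 354, 254, 289 and 323 CPM (log2 fold change -0.91 ± 0.17 SE, adjusted p = 0.00204), while the VEGF receptor Kdr rose to 318, 311, 304 and 289 CPM from 161, 145, 189 and 227 CPM (log2 fold change 0.77 ± 0.15 SE, adjusted p = 0.00283). Of the astrocyte markers only Aldoc, an aldolase, was tested, at 51.4, 53.6, 59.3 and 48.8 CPM against 123, 145.7, 121 and 129 CPM (log2 fold change -1.27 ± 0.13 SE, adjusted p = 4.1e-05). Of the oligodendrocyte markers 3 were tested and none was called (1, Cnp, was lower with the replicate number as a block, adjusted p = 0.046), and none of the neuronal markers was tested.

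Rnu2-10, a gene of the U2 small nuclear RNA, was at 64.1, 582, 444 and 133 CPM in the vehicle libraries and had no count in any LPS library (adjusted p = 0.000276). It was chosen after its values were seen, and its call was lost with all 8 groups in 1 fit (adjusted p = 0.0635). The share of counts from structural RNA was 3.19 to 4.65% in the LPS libraries and 4.41 to 18.8% in the vehicle libraries, ranges that overlapped.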
